A study of Homo sapiens with 8 samples.

Results

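The genes described here lie on chromosome 4p16, at and around the place where the myeloma translocation t(4;14) breaks the chromosome. They are WHSC1 (also called NSD2 or MMSET), FGFR3, LETM1, TACC3, NELFA (older name WHSC2) and SLBP. The rule that chose them used gene symbol and position and no measured value, but it was set with earlier results of these data known. NELFA was matched to the older name through RefSeq. All 6 were found among the 63129 genes of the deposited table, and all 6 were among the 14732 genes that were tested, those whose mean level reached 1 RPKM, a read count scaled to transcript length and to library depth.

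RNA sequencing was carried out on LP-1 cells, a human multiple myeloma line, in 2 experiments of 4 libraries each. In the first, cells were treated for 6 hr with 2.5 μM SGC-CBP30, an inhibitor of the bromodomains of the acetyltransferases CBP and EP300, or with DMSO, the solvent alone. In the second, the same line was treated for 6 hr with 250 nM CPI203, an inhibitor of the bromodomains of the BET family, or with its own DMSO. Each of the 4 groups had 2 libraries, described in the study as biological replicates, and no untreated cells or second cell line were analysed here. The pairs of DMSO libraries were told apart by the prefix of the library names, which each shares with a compound. All groups share the LP-1 background, so the values describe a single cell line, and the doses of the compounds are not matched to each other.

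In t(4;14), WHSC1 and FGFR3 come under the control of enhancers of the immunoglobulin heavy chain (IGH) locus, on separate derivative chromosomes, and LP-1 is a line known to carry this translocation. WHSC1 is a histone methyltransferase that places dimethyl marks on lysine 36 of histone H3, and FGFR3 is a receptor tyrosine kinase for fibroblast growth factors. LETM1, a mitochondrial inner membrane protein involved in cation exchange, lies between them. TACC3, a protein of the mitotic spindle, and SLBP, which binds the stem-loop at the end of replication-dependent histone mRNAs, lie on the side of FGFR3. NELFA, a subunit of the negative elongation factor that holds paused RNA polymerase II, lies beyond WHSC1. The table gives a single value per gene, so reads from the translocated and the intact chromosome cannot be told apart.

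By the deposited positions (hg19), the order along chromosome 4 is SLBP at chr4:1694526-1714282, TACC3 at chr4:1723226-1746898, FGFR3 at chr4:1795033-1810599, LETM1 at chr4:1813205-1857974, WHSC1 at chr4:1873150-1983934 and NELFA at chr4:1984440-2043630. The whole stretch is 349.1 kb. The smallest gaps are those of 0.5 kb between WHSC1 and NELFA and of 2.6 kb between FGFR3 and LETM1, and the widest is that of 48.1 kb between TACC3 and FGFR3. Small genes lie within 3 of the members. WHSC1 overlaps AL132868.1 and SCARNA22, with at most 0.085 and 0.697 RPKM in any library, TACC3 overlaps AC016773.1, with at most 1.61 RPKM, and NELFA overlaps MIR943, listed at 0.

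The promoters of WHSC1, FGFR3 and SLBP are shown because the first 2 are the genes placed next to IGH enhancers and fell with CPI203, while SLBP, on the same stretch, rose. Each sequence holds the 250 bases before the gene's start in RefSeq on GRCh38.p14, a build other than that of the deposited positions, written 5′ to 3′ on the gene's own strand. Capitals mark matches to the GC box GGGCGG and, in WHSC1, to the CCAAT box, on either strand. The WHSC1 window is chr4:1871143-1871392 on the plus strand, the FGFR3 window is chr4:1793043-1793292 on the plus strand and the SLBP window is chr4:1712320-1712569 on the minus strand.
WHSC1: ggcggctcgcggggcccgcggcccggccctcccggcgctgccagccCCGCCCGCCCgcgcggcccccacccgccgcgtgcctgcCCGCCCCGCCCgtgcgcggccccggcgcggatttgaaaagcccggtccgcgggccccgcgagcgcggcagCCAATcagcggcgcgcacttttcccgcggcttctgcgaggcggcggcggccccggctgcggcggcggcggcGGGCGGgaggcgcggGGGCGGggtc
FGFR3: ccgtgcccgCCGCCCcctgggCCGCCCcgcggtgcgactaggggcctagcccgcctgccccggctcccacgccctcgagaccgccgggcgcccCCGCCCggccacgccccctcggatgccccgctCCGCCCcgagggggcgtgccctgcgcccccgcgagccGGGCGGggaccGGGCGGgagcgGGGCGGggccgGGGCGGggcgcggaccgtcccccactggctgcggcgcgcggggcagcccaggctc
SLBP: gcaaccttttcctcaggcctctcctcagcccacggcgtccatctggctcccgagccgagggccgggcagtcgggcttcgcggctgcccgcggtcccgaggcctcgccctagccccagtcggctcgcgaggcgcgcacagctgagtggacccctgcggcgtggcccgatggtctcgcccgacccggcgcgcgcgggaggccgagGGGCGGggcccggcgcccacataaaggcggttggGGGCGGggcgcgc

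The FGFR3 window held 8 GC boxes, the WHSC1 window held 6, some sharing bases, and 1 CCAAT box starting 96 bases before the gene, and the SLBP window held 2 GC boxes. The windows of TACC3 and NELFA held neither, and no window was available for LETM1, which fell most of the 6 with CPI203. Of all 35116 promoter windows of this length, 42.6% held a GC box and 32.0% a CCAAT box. The E-box CACGTG (in 6.3% of all windows), the TATA box TATAAA (10.7%), the AP-1 site TGANTCA (6.6%) and the paired-repeat motif of interferon regulatory factors (3.0%) had no match in any of the 5 windows, which says only that these letters are not there. GC content was 86.8% for FGFR3, 86.0% for WHSC1, 77.2% for SLBP, 71.6% for TACC3 and 71.2% for NELFA, against a median of 58.0% over all windows. A match is a description of the letters and not a site of binding.

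Depth was estimated at 26000000 to 50100000 reads per library. The members drew an estimated 1225 to 30299 reads each, so that counting error was 0.57% to 2.86% of a value. The spread between the 2 replicates was below this error for some members, such as WHSC1 in DMSO, and above it for others. The cells were checked against markers of plasma cells. All 6 plasma cell markers had at least 1 RPKM in every library, and their summed level was 1164 and 1213 RPKM in DMSO against 853 and 881 RPKM with SGC-CBP30, and 1245 and 1262 RPKM in DMSO against 792 and 804 RPKM with CPI203. IRF4 had the largest fall of these with SGC-CBP30 (log2 fold change -1.36) and TNFRSF17 with CPI203 (-2.40). PRDM1 went the other way with CPI203, from a mean of 52.9 to 68.2 RPKM (0.36), and SDC1 did not pass with SGC-CBP30 (0.14). The 8 markers of other cell types summed to 0.915 to 3.67 RPKM, with EPCAM and PAX5 listed at 0 in every library. HBB, the highest of them, fell with CPI203 from a mean of 3.37 to 1.49 RPKM (log2 fold change -1.18), and did not pass against all 4 DMSO libraries (-0.20). The part of these shifts in the results below was not tested, and in bulk RNA fewer cells of a type and less RNA per cell cannot be told apart.

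All 6 genes were well expressed in DMSO. In the DMSO libraries of SGC-CBP30, SLBP was highest at 119.5 ± 1.19 RPKM (SD, n = 2), followed by WHSC1 at 77.3 ± 0.193, TACC3 at 76.1 ± 1.76, LETM1 at 68.1 ± 2.28, FGFR3 at 36.3 ± 0.889 and NELFA at 34.9 ± 0.8504. WHSC1 and TACC3, neighbours in this order, overlapped in their libraries. The other neighbours did not, although the closest libraries of FGFR3 and NELFA were 35.6 and 35.5 RPKM. In the DMSO libraries of CPI203 the order was SLBP at 108 ± 2.08, WHSC1 at 75.3 ± 0.0981, LETM1 at 61.1 ± 2.97, TACC3 at 60.8 ± 1.00, FGFR3 at 34.1 ± 2.25 and NELFA at 25.9 ± 1.66 RPKM, where LETM1 and TACC3 overlapped. The lowest of these means, NELFA in the DMSO libraries of CPI203, was still above 69.4% of the genes tested.

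**Figure D1:**
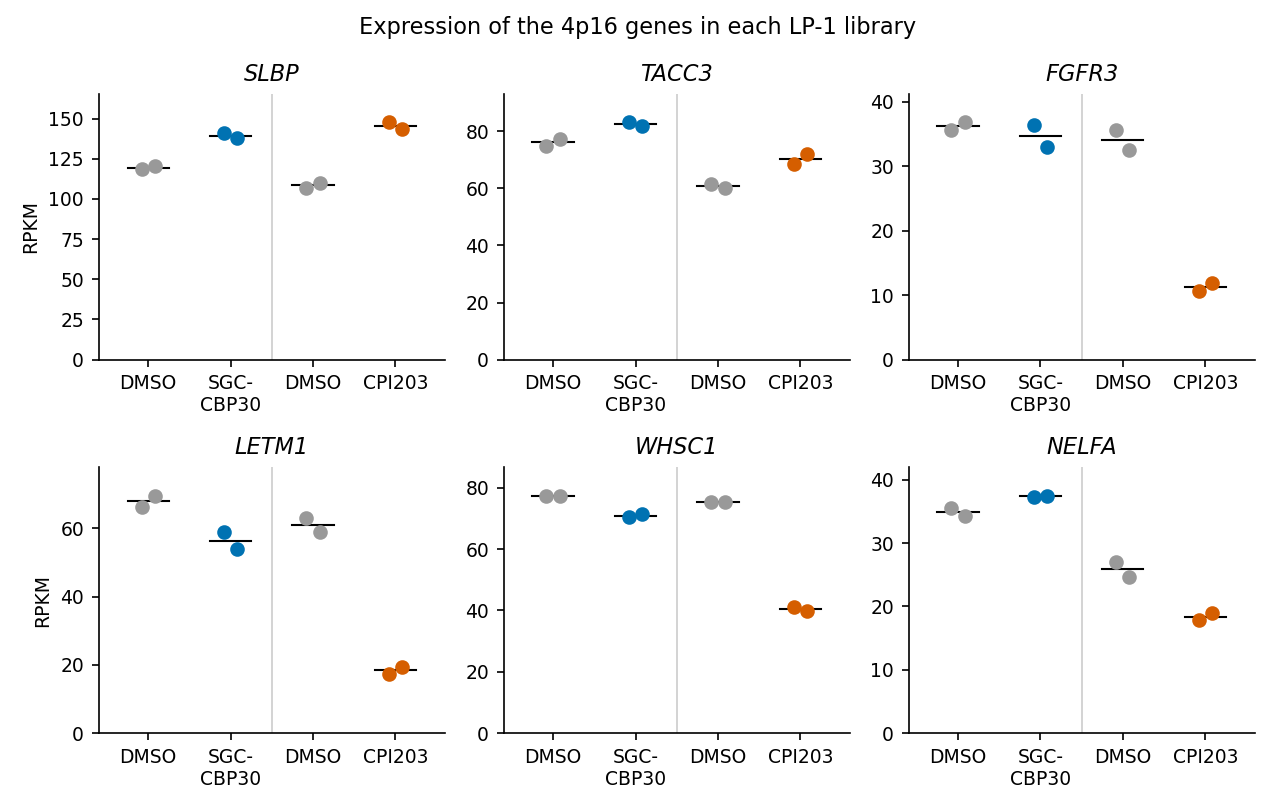
Level of each gene in RPKM (vertical axes, from 0) in the 4 groups, with a point for each library and a bar at the mean of 2. FGFR3, LETM1, WHSC1 and NELFA are lower in both CPI203 libraries than in their DMSO libraries, and TACC3 and SLBP are higher.

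WHSC1 fell with CPI203 to 53.6% of its DMSO mean and moved by less than 10% with SGC-CBP30. The libraries held 77.5 and 77.2 RPKM in DMSO and 70.6 and 71.3 RPKM with SGC-CBP30, and 75.4 and 75.2 RPKM in DMSO and 41.1 and 39.7 RPKM with CPI203. Treated libraries lay below their DMSO libraries in both experiments, without overlap. On the log2(RPKM + 0.1) scale used for all fold changes, the change with CPI203 was -0.90 (SE 0.0358, adjusted p = 4.67e-08, limma with Benjamini-Hochberg adjustment over all genes tested). With SGC-CBP30 it was -0.12 (SE 0.0358, adjusted p = 0.0211), and this call was lost after quantile normalization (-0.09) and without any of the 4 libraries of that experiment (-0.13 to -0.12). The call was also lost with a replicate block, a term for the replicate number (-0.124), against all 4 DMSO libraries (-0.105) and without the intensity trend (-0.124).

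FGFR3 fell with CPI203 to 33.1% of its DMSO mean, a larger relative fall than that of WHSC1, and had no detectable change with SGC-CBP30. The libraries held 35.6 and 36.9 RPKM in DMSO and 36.5 and 33.0 RPKM with SGC-CBP30, and 35.7 and 32.5 RPKM in DMSO and 10.6 and 12.0 RPKM with CPI203. The SGC-CBP30 libraries overlapped their DMSO libraries, and the CPI203 libraries lay far below theirs. The log2 change was -1.59 with CPI203 (SE 0.0746, adjusted p = 1.19e-07) and -0.06 with SGC-CBP30, with a 95% interval of -0.23 to 0.11 (adjusted p = 0.540, limma). Of all 14732 genes tested, 290 had a larger fall with CPI203. In the order of all genes tested, FGFR3 went from above 76.3% of them in DMSO to above 47.4% with CPI203.

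LETM1, between the 2 genes that the translocation activates, had the largest fall of the 6 with either compound. The libraries held 66.4 and 69.7 RPKM in DMSO and 59.0 and 53.8 RPKM with SGC-CBP30, and 63.2 and 59.0 RPKM in DMSO and 17.5 and 19.3 RPKM with CPI203. Neither treated pair overlapped its DMSO pair. With CPI203 it fell to 30.1% of its DMSO mean (log2 change -1.73, SE 0.0641, adjusted p = 3.20e-08), and 233 genes fell further. With SGC-CBP30 it fell to 82.9% (log2 change -0.27, SE 0.0641, adjusted p = 0.00847), a call that was lost when all 4 DMSO libraries served as controls (-0.19) and without DMSO replicate 2 (-0.24) or SGC-CBP30 replicate 2 (-0.21). The call was also lost without the filter on low values (-0.27).

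NELFA fell with CPI203 by less than the 1.5-fold used as a size limit and did not pass the test with SGC-CBP30. The libraries held 35.5 and 34.3 RPKM in DMSO and 37.3 and 37.5 RPKM with SGC-CBP30, and 27.05 and 24.7 RPKM in DMSO and 17.9 and 18.9 RPKM with CPI203. The CPI203 libraries lay below theirs and the SGC-CBP30 libraries above theirs, without overlap. The log2 change was -0.49 with CPI203 (SE 0.0566, adjusted p = 3.90e-05) and 0.10 with SGC-CBP30, with a 95% interval of -0.03 to 0.23 (adjusted p = 0.190, limma). Against all 4 DMSO libraries the fall with CPI203 was past the size limit (-0.70).

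SLBP and TACC3, the 2 genes farthest on the side of FGFR3, rose modestly with both compounds. The SLBP libraries held 118.7 and 120.4 RPKM in DMSO and 141 and 138 RPKM with SGC-CBP30, and 107 and 110.0 RPKM in DMSO and 148 and 143 RPKM with CPI203. Treated libraries lay above their DMSO libraries in both experiments. The log2 change of SLBP was 0.22 with SGC-CBP30 (SE 0.0335, adjusted p = 8.83e-04) and 0.42 with CPI203 (SE 0.0335, adjusted p = 2.90e-06). The TACC3 libraries held 74.9 and 77.4 RPKM in DMSO and 83.2 and 81.7 RPKM with SGC-CBP30, and 61.5 and 60.1 RPKM in DMSO and 68.5 and 71.99 RPKM with CPI203. Again neither treated pair overlapped its DMSO pair. The log2 change of TACC3 was 0.21 with CPI203 (SE 0.0396, adjusted p = 0.00112). With SGC-CBP30 it was 0.11 (SE 0.0396, adjusted p = 0.0433), which was lost after median scaling (0.04) and without any of the 4 libraries of that experiment (0.09 to 0.14). The call was also lost with a replicate block (0.115), against all 4 DMSO libraries (0.277), without the filter on low values (0.115) and without the intensity trend (0.115). With CPI203 TACC3 did not pass against all 4 DMSO libraries (0.05).

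With SGC-CBP30, 2 of the 6 genes passed the test downward (WHSC1, LETM1), 2 passed upward (TACC3, SLBP) and 2 did not pass, while 14.8% of all genes tested passed downward, 25.6% upward and 40.4% in either direction. With a replicate block 2 of the 6 passed, and against all 4 DMSO libraries 1 did. Leaving out any library of that experiment also lowered the count. None of the 6 passed limma with a change of at least 1.5-fold, against 7.26% of all genes, and 4 had an unadjusted p under 0.05. With CPI203, 4 passed downward and 2 upward, against 33.1% of all genes downward, 31.1% upward and 64.2% in either direction. FGFR3, LETM1 and WHSC1 passed with a fall of at least 1.5-fold, 3 of 6, and 14.4% of all genes did so (27.8% in either direction). The median log2 change of the 6 genes was 0.02 with SGC-CBP30 and -0.69 with CPI203, beside medians of 0.07 and -0.02 over all genes tested. The falls of FGFR3, LETM1 and WHSC1 with CPI203 kept their direction and passed the test under every alternative run, including leaving out any library.

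The responses to the compounds were then compared as the SGC-CBP30 change minus the CPI203 change, at doses that are not matched. Each compound was used in its own experiment, so a difference between compounds and a difference between experiments cannot be told apart. The difference passed for 5 of the 6 genes, 4 upward and 1 downward, against 29.3% of all genes upward, 21% downward and 50.3% in all. Of the 6, 4 differed upward by at least 1.5-fold, against 14.8% of all genes. It was 1.52 for FGFR3 (SE 0.106, adjusted p = 3.74e-06), 1.45 for LETM1 (adjusted p = 2.24e-06), 0.77 for WHSC1 (adjusted p = 2.80e-06) and 0.59 for NELFA (adjusted p = 2.30e-04, limma), the last just above the size limit of 0.585. WHSC1 and LETM1 fell further with CPI203, and FGFR3 and NELFA passed downward with CPI203 and not with SGC-CBP30. SLBP differed the other way (-0.20, adjusted p = 0.00584), since it rose more with CPI203. For TACC3 the difference was -0.09, with a 95% interval of -0.22 to 0.03 (adjusted p = 0.195).

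**Figure D2:**
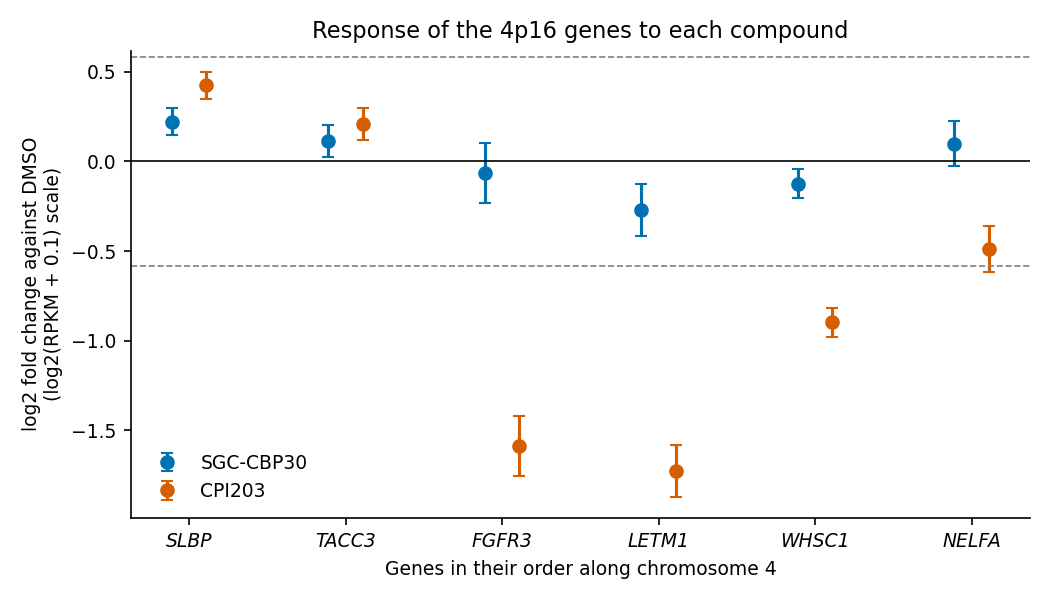
Log2 fold change of each gene against its own DMSO (axis in log2 units, with 95% intervals from limma) for SGC-CBP30 and CPI203, in order along the chromosome. The CPI203 values run from 0.42 for SLBP to -1.73 for LETM1 and -0.49 for NELFA, while those of SGC-CBP30 stay between -0.27 and 0.22.

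The DMSO pairs of the experiments were not alike for all 6 genes. In the DMSO libraries of CPI203, TACC3 was at 79.9%, NELFA at 74.1% and SLBP at 90.8% of the mean in the DMSO libraries of SGC-CBP30. These 3 passed the test downward (log2 differences -0.32, -0.43 and -0.14, adjusted p = 2.36e-04, 3.42e-04 and 0.00869, limma), none by 1.5-fold. Of all genes, 21.5% passed downward and 41.7% in either direction, and 7.84% passed by 1.5-fold. At an unadjusted p under 0.05 there were 4. WHSC1 (-0.04), FGFR3 (-0.09) and LETM1 (-0.16) did not pass. The SLBP difference was lost after quantile normalization (-0.08) and without DMSO replicate 2 of the SGC-CBP30 experiment (-0.13). The labels set the DMSO pairs apart by the prefix of the library name alone, the cause of the differences was not tested, and every change above is taken against its own DMSO.

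On the wider stretch of chromosome 4, some genes rose and others fell with CPI203. Within 1000000 bases of WHSC1 lay 55 other genes, 19 of them tested. With SGC-CBP30, 1 of the 19 passed downward and 4 upward, none by 1.5-fold in limma. With CPI203, 5 passed downward and 9 upward, of which 4 fell and 4 rose by at least 1.5-fold, and the median log2 change was 0.18. Over all genes tested, 33.1% passed downward and 31.1% upward with CPI203. By at least 1.5-fold, 14.4% passed downward with CPI203 and 27.8% in either direction. The shares with SGC-CBP30 were 14.8% downward and 25.6% upward, with 7.26% past 1.5-fold in either direction. The counts of this list and those that follow stand beside these shares. The largest fall was that of SH3BP2, an adaptor protein, with 6.71 and 6.93 RPKM in DMSO and 1.78 and 1.98 RPKM with CPI203 (log2 change -1.81, adjusted p = 1.68e-07). The largest rise was that of HAUS3, a subunit of the augmin complex of the spindle, with 14.1 and 15.0 RPKM in DMSO and 45.6 and 43.0 RPKM with CPI203 (1.60, adjusted p = 3.60e-08). TMEM129, which lies between SLBP and TACC3, fell (-0.73) although both of its neighbours rose, and NAT8L, beyond NELFA, fell as well (-0.86). These last 2 genes were picked after their values were seen.

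**Figure D3:**
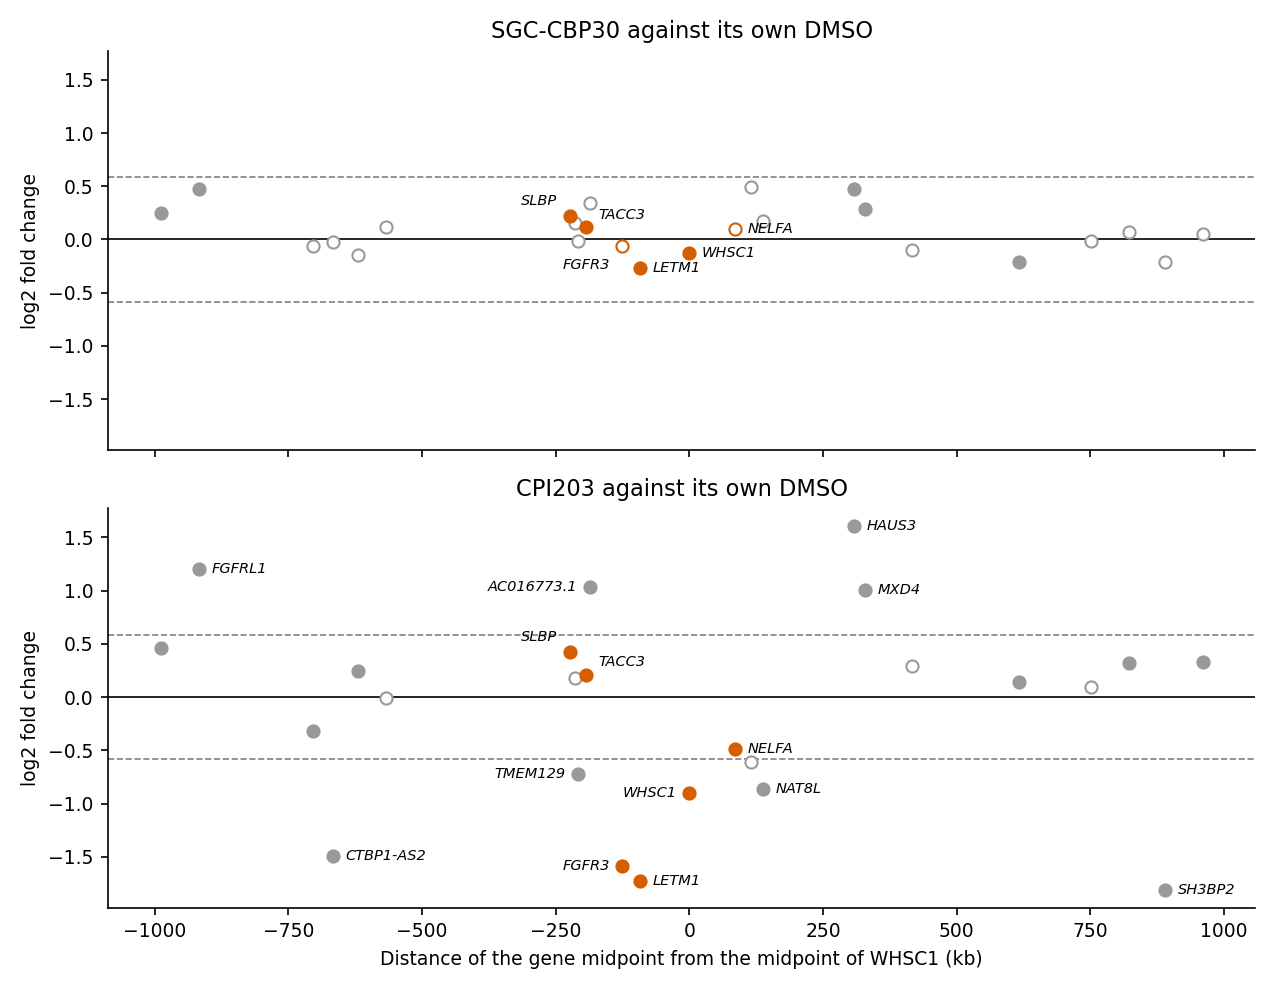
Log2 fold change (vertical axes) of every tested gene within 1000000 bases of WHSC1 against the distance between gene midpoints in kb, for each compound. Orange points are the 6 genes, grey points the 19 others, filled points passed the test and dashed lines mark 1.5-fold. With CPI203, FGFR3, LETM1 and WHSC1 lie below the lower line, SH3BP2 falls and HAUS3 rises.

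FGFR3 was the most abundant receptor of its family in every group, and its lead over FGFR1 shrank with CPI203. In the DMSO libraries of CPI203, FGFR3 stood at 34.1 RPKM, FGFR4 at 4.34 ± 0.414, FGFR2 at 4.01 ± 0.227, FGFRL1, a receptor without a kinase domain, at 1.41 ± 0.163 and FGFR1 at 0.952 ± 0.123 RPKM (SD, n = 2). FGFR1 held 0.865 and 1.04 RPKM in DMSO and 6.06 and 6.18 RPKM with CPI203 (log2 change 2.57, adjusted p = 6.93e-07). The ratio of the mean of FGFR3 to that of FGFR1, both per length, was 35.8 in DMSO and 1.85 with CPI203. FGFRL1 rose too (1.20, adjusted p = 5.12e-05), FGFR2 fell (-0.47, adjusted p = 0.00494) and FGFR4 did not pass (0.14, adjusted p = 0.275, limma).

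With SGC-CBP30 the family moved differently. FGFR2 held 5.80 and 5.25 RPKM in DMSO and 2.56 and 2.29 RPKM with SGC-CBP30, without overlap (log2 change -1.16, adjusted p = 8.01e-05). FGFR1 fell from low levels, from 1.14 and 1.16 to 0.703 and 0.669 RPKM (-0.67, adjusted p = 0.00986), and the call was lost when all 4 DMSO libraries were used (-0.54) or without SGC-CBP30 replicate 2 (-0.63). FGFRL1 came to 0.47 (adjusted p = 0.0264), a call lost without any of the 4 libraries of that experiment (0.42 to 0.53). The FGFRL1 call was also lost after median scaling (0.401) and quantile normalization (0.407). The same held without the filter on low values (0.475) and with a replicate block (0.475). FGFR4 did not pass (-0.20, adjusted p = 0.174, limma). The ratio of FGFR3 to FGFR1 was 31.6 in DMSO and 50.7 with SGC-CBP30.

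**Figure D4:**
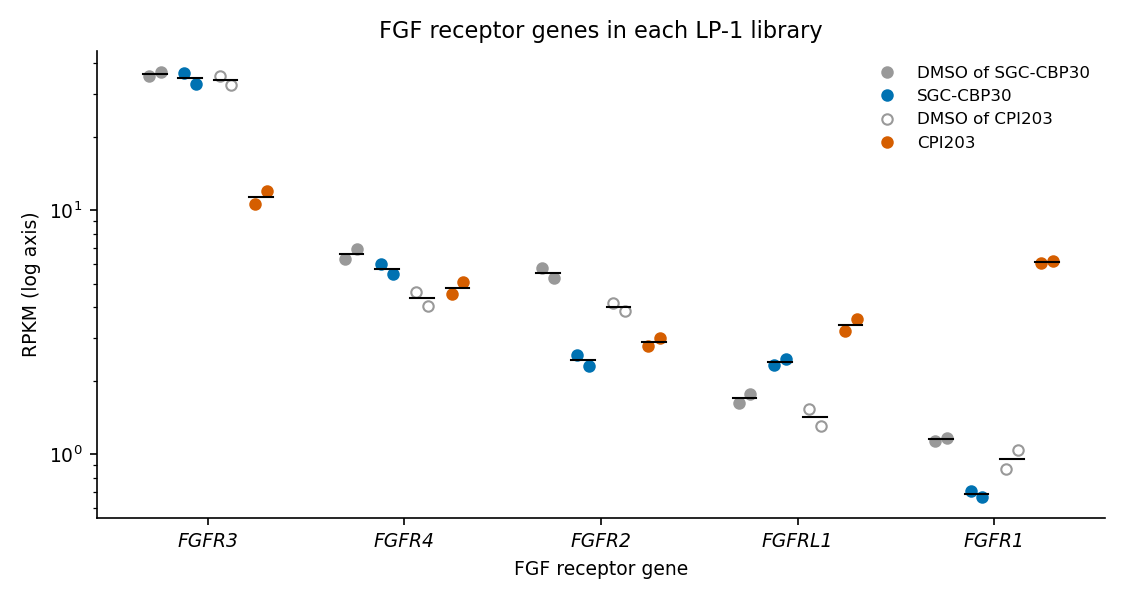
Level of the FGF receptor genes in RPKM (log axis) in the 4 groups, with a point for each library. FGFR3 is above the other receptors in every group, and FGFR1 rises with CPI203 from a mean of 0.952 to 6.12 RPKM.

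Of the genes of FGF receptor signalling and its feedback, 29 of 34 were tested. With CPI203, 5 passed downward and 17 upward, 2 and 9 of them by at least 1.5-fold, and the median log2 change was 0.32. SPRY1, a feedback inhibitor of receptor tyrosine kinase signalling, had the largest fall, from 5.43 and 5.07 RPKM in DMSO to 1.52 and 1.26 RPKM (-1.85, adjusted p = 4.94e-07). ETV5, an ETS transcription factor downstream of the receptors, had the largest rise, from 0.657 and 1.28 to 3.14 and 2.93 RPKM (1.62, adjusted p = 3.41e-04). With SGC-CBP30, 4 passed downward and 8 upward. DUSP4, a phosphatase of MAP kinases, was the single gene that passed by 1.5-fold, from 2.02 and 2.34 to 1.02 and 0.944 RPKM (-1.07, adjusted p = 9.07e-04, limma), and it fell by 1.02 on the log2 scale with CPI203.

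The relatives of WHSC1 were less abundant. In the DMSO libraries of CPI203, WHSC1L1 (NSD3) stood at 24.4 ± 2.60 and NSD1 at 14.6 ± 0.0878 RPKM, against 75.3 RPKM for WHSC1. NSD1 fell with CPI203, from 14.5 and 14.6 RPKM to 7.25 and 7.19 RPKM (log2 change -1.001, adjusted p = 8.89e-07), so that the ratio of WHSC1 to NSD1 was 5.18 in DMSO and 5.60 with CPI203. WHSC1L1 came to -0.23 (adjusted p = 0.0147, limma), a call that held in 15 of 18 alternatives. Its losses included those without DMSO replicate 2 (-0.13) or CPI203 replicate 2 (-0.20) of that experiment. With SGC-CBP30 neither passed in limma (NSD1 -0.07, adjusted p = 0.442, and WHSC1L1 0.14, adjusted p = 0.129). WHSC1L1 passed with separate fits (adjusted p = 0.0448) and without DMSO replicate 1 or 2 of CPI203 (adjusted p = 0.0475 and 0.0483).

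Of the other genes that write, erase or read methylation of lysines 36 and 27 of histone H3, 18 of 19 were tested. With CPI203, 3 passed downward and 7 upward, with SETMAR the largest fall by 1.5-fold (7.45 and 7.59 RPKM to 4.52 and 4.32 RPKM, log2 change -0.75) and KDM4A, a demethylase, the largest rise (12.6 and 13.7 to 24.2 and 23.4 RPKM, 0.85). With SGC-CBP30, 7 passed upward and none downward, beside 25.6% and 14.8% of all genes. None passed by 1.5-fold in limma, beside 7.26% of all genes.

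The other subunits of the negative elongation factor fell with CPI203 alongside NELFA, each by less than 1.5-fold. In the DMSO libraries of CPI203, NELFCD stood at 129.9 ± 0.413, NELFE at 109 ± 2.34, NELFB at 31.0 ± 1.55 and NELFA at 25.9 RPKM. With CPI203 the means were 92.6, 90.5, 28.1 and 18.4 RPKM. The log2 changes were -0.49 for NELFCD (adjusted p = 2.26e-06), -0.27 for NELFE (adjusted p = 1.55e-04) and -0.14 for NELFB (adjusted p = 0.0343, limma). The NELFB call held in 11 of 18 alternatives. Its losses included those without DMSO replicate 1 (-0.09) or either CPI203 library (-0.14). It was also lost with separate fits, without the filter on low values and without the intensity trend. With SGC-CBP30 none of the 3 passed in limma, the lowest adjusted p being 0.131, for NELFE, which passed after median scaling (-0.16, adjusted p = 0.0153).

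Of the 16 other pausing and elongation factors, 1 passed downward and 11 upward with CPI203, 4 of these by 1.5-fold. HEXIM1, an inhibitor of the elongation kinase P-TEFb, rose most, from 7.54 and 7.27 RPKM to 19.8 and 20.3 RPKM (1.43, adjusted p = 1.30e-07). With SGC-CBP30, 5 passed downward and 5 upward, and AFF1, a scaffold of the super elongation complex, was the single gene past 1.5-fold, from 33.8 and 29.2 RPKM to 18.9 and 20.4 RPKM (-0.68, adjusted p = 1.65e-04, limma).

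The counts around TACC3 and SLBP stand beside the shares of all genes. With CPI203, 31.1% of all genes passed upward and 33.1% downward, and with SGC-CBP30 25.6% and 14.8% did. By 1.5-fold in either direction, 27.8% of all genes passed with CPI203 and 7.26% with SGC-CBP30. Of 8 tested partners of TACC3 on the spindle, 7 passed upward with CPI203 and 4 with SGC-CBP30, none downward, and TACC1, a relative of TACC3, was the single one past 1.5-fold, from 19.8 and 21.6 RPKM to 42.3 and 39.2 RPKM with CPI203 (log2 change 0.98). Of 17 tested genes that process histone mRNA with SLBP, 7 passed downward and 4 upward with CPI203, beside 33.1% and 31.1% of all genes. By at least 1.5-fold, 3 of them fell and 1 rose. LSM11, a subunit of the U7 particle that cuts histone pre-mRNA, fell most, from 5.42 and 5.68 to 2.57 and 2.70 RPKM (-1.05), and CASP8AP2 rose from 5.14 and 6.20 to 7.75 and 9.56 RPKM (0.60). With SGC-CBP30, 1 of these passed downward and 3 upward, none by 1.5-fold in limma.

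Of 12 tested genes of mitochondrial cation transport listed with LETM1, 4 passed downward and 5 upward with CPI203. By at least 1.5-fold, none fell, beside 14.4% of all genes, and 2 rose. SLC24A6, a mitochondrial sodium and calcium exchanger, rose most, from 2.51 and 3.12 to 7.24 and 6.81 RPKM (1.30). With SGC-CBP30, 2 passed downward and 4 upward. Of these, 3 rose by at least 1.5-fold, beside 7.26% of all genes past that size in either direction. LETM2, the relative of LETM1, had the largest rise (0.62, adjusted p = 0.0365, limma). Its libraries held 1.75 and 1.77 RPKM in DMSO and 2.77 and 2.75 RPKM with SGC-CBP30. The LETM2 call held in 6 of 17 alternatives, whose values ran from 0.446 to 0.626. Among the losses were those without any of the 4 libraries of that experiment (0.61 to 0.63).

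Other genes that IGH translocations join in myeloma were read in the same libraries. CCND1 had at most 0.153 RPKM in any library and was not tested. CCND2, a cyclin of the D type, held 101 and 108 RPKM in DMSO and 56.5 and 50.3 RPKM with SGC-CBP30 (log2 change -0.97, adjusted p = 4.11e-06), and 81.3 and 76.9 RPKM in DMSO and 41.2 and 40.0 RPKM with CPI203 (-0.96, adjusted p = 5.88e-07). It fell with both compounds, and the difference between its responses was -0.01. MAF, a transcription factor, moved in opposite directions. It held 42.9 and 43.6 RPKM in DMSO and 22.1 and 20.3 RPKM with SGC-CBP30 (-1.03, adjusted p = 1.48e-06), and 31.0 and 29.4 RPKM in DMSO and 45.0 and 45.9 RPKM with CPI203 (0.59, adjusted p = 6.41e-06), a rise that was not past the test against all 4 DMSO libraries (0.33). CCND3 came to 0.08 with SGC-CBP30 (adjusted p = 0.273) and rose with CPI203 from 17.7 and 16.9 to 24.2 and 24.9 RPKM (0.50, adjusted p = 2.80e-05, limma).

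The genes with the most similar profiles were found for each of the 6, as the smallest root mean square difference in log2 value over the 8 libraries after each gene's own mean was removed. FGFR3 and LETM1 lay close together, at 0.0910 on this measure, with 16 of the genes tested closer to FGFR3. The nearest to FGFR3 were FBXO41 (0.0407), UTP18 and ZNF747, and the nearest to LETM1 were ENAM (0.0641), LZTS2 and ZNF747. WHSC1 was farther from both, at 0.334 from FGFR3 and 0.381 from LETM1, and nearest to PHF23 (0.0396), GTPBP4 and NOLC1. TACC3 was nearest to SMARCB1 (0.0224), REEP4 and CRAMP1L, NELFA to ASB1 (0.0489), TMEM216 and DDX55, and SLBP to CREB3 (0.0313), TRIM21 and PCNA. The closest pair of members after FGFR3 and LETM1 was TACC3 and SLBP, at 0.151, with 1538 of the genes tested closer to TACC3. All profiles share the same 8 libraries and the same 4 groups, and differences between the DMSO pairs enter them as well as the changes with a compound.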

How the data were processed

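RNA was sequenced from 8 LP-1 libraries, 2 in each of 4 groups. The authors deposited RPKM values, made by their sequencing provider, with 1 value per gene and library. The submitters' processing notes name TopHat 1.4.1, Cufflinks and hg19. The counting settings, annotation release and library strand are not given in the sources used here, so reads of overlapping genes could be shared between them. The deposited table holds 24 other columns of libraries, which were not used, and 27 genes lacking a value in some library were dropped. The members and gene lists were chosen with earlier results of these data known.

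Values were analysed as log2(RPKM + 0.1) without further scaling, for genes whose mean over the 8 libraries was 1 RPKM or more. limma 3.58.1 in R 4.3.3, with a trend in the prior variance, was applied to the 4 groups (4 residual and 5.5 prior degrees of freedom), with Benjamini-Hochberg adjustment over 14732 genes. A gene passed at an adjusted p under 0.05, and the size limit was 1.5-fold. An exact two-sided permutation test of 2 libraries against 2 cannot go below 0.333 and was not used. Without counts in the files, no count model was applied. The script was checked on simulated data.

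Depth was estimated from low values of genes with a single exon of at least 800 bases, whose RPKM moves in steps of 1 read. Depending on the library, 61.9% to 73.3% of these were whole within 0.1 read, so depth is approximate. Transcript lengths came from GENCODE release 29, and promoters from RefSeq (5 of the 6 genes matched, all but LETM1).

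Named genes were the 6 members, the largest rise and fall past the size limit in each list with each compound, all genes of the FGF receptor, NSD, NELF and IGH partner lists (1 gene is not reported here), and the 3 nearest profiles of each member. Alternatives were another offset (1) or minimum (5 RPKM, or none), median and quantile scaling, separate fits, pooled DMSO libraries, no intensity trend, a replicate block and leaving out each library.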

Additional observations from a re-analysis of the deposited data

How the results depend on the processing

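The falls of WHSC1, FGFR3, LETM1 and NELFA and the rise of SLBP with CPI203, the rise of SLBP with SGC-CBP30, and the differences between compounds for WHSC1, FGFR3, LETM1 and NELFA kept their direction and passed under every alternative run. The difference of NELFA ranged from 0.522 to 0.654 and so lay on both sides of the size limit. Separate fits and pooled DMSO libraries were not run for the difference or for the DMSO pairs. The changes of WHSC1, LETM1 and TACC3 with SGC-CBP30 did not pass under every alternative, and the cause was not tested. Of the 6 genes, 4 passed with SGC-CBP30, but 2 passed without a filter on low values, 2 with a replicate block, 2 without the intensity trend and 1 with all 4 DMSO libraries as controls. Leaving out any library of the SGC-CBP30 experiment lowered the count, and leaving out a library of the CPI203 experiment did not. WHSC1 no longer passed after quantile normalization (-0.089), with the block (-0.124), with all 4 DMSO libraries (-0.105), without the trend (-0.124) or with any library of the SGC-CBP30 experiment left out (-0.132 to -0.117). LETM1 no longer passed without the filter (-0.272), with all 4 DMSO libraries (-0.193) or without replicate 2 of either group of the SGC-CBP30 experiment. It ranged from -0.337 to -0.206 over all libraries left out. TACC3 no longer passed without the filter (0.115), after median scaling (0.038), with the block (0.115) or the crossed block (0.115), with all 4 DMSO libraries (0.277), without the trend (0.115) or with any library of the SGC-CBP30 experiment left out (0.091 to 0.138). FGFR3, which did not pass, came to 0.009 without SGC-CBP30 replicate 2, a change of sign, within -0.134 to 0.009 over all libraries left out.

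With CPI203, TACC3 came to 0.046 against all 4 DMSO libraries and no longer passed. Its difference between compounds passed after median scaling (-0.160). Between the DMSO pairs, SLBP no longer passed after quantile normalization (-0.076), with the block (-0.142), with the crossed block (-0.124), without the trend (-0.140) or with a library left out (-0.159 to -0.120 over all libraries), and WHSC1, which did not pass, came to 0.003 after quantile normalization. Median scaling and quantile normalization moved the median of all genes by at most 0.08 on the log2 scale.

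Counts of all genes past 1.5-fold depended on the minimum level. At a mean of at least 5 RPKM, 505 genes were called with SGC-CBP30 (1070 at 1 RPKM), 2590 with CPI203 (4095), 2358 for the difference (3609) and 518 between the DMSO pairs (1155). With SGC-CBP30, 667 genes were called on log2(RPKM + 1) and 516 against all 4 DMSO libraries. Among the other genes, those near 0 changed sign. With SGC-CBP30 these were FGFR4 (0.101), NELFCD (0.034) and NELFB (0.104) against all 4 DMSO libraries, NELFCD (0.040) and NELFE (0.002) after quantile normalization, NSD1 without SGC-CBP30 replicate 1 (0.003, in a range of -0.139 to 0.003) and NELFB without SGC-CBP30 replicate 2 (0.001, in a range of -0.071 to 0.001). With CPI203 this was FGFR4 against all 4 DMSO libraries (-0.156). The study calls its DMSO controls paired, but no source says that equal replicate numbers mark a shared culture or day. With the block, the adjusted p with SGC-CBP30 was 0.0726 for WHSC1 and 0.1095 for TACC3 (limma). Deviations of same-numbered libraries correlated at -0.172 in the SGC-CBP30 experiment and -0.039 in the CPI203 experiment over 8298 genes, and the crossed pairing was chosen after seeing the data.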
